A study of Mus musculus with 20 samples.

Results

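Pre-B cells whose RAG recombinase can cut and whose repair is intact were compared with pre-B cells that cannot make the cut. The comparison used 6 of the 20 arrays of the series, chosen by their source labels alone: 3 wild type and 3 RAG-2-deficient lines, with every probe set of the array entered. All were mouse pre-B lines transformed by the v-abl oncogene, grown in DMEM with 10% serum and held with 3 uM STI571 (imatinib) over 48 hours, a blocker of the v-abl kinase. STI571 was given to both groups, so no untreated cells enter the comparison, and the RAG-2-deficient lines are the control that the series names. Levels of the same genes were also read in 8 other line samples under the same treatment, namely Artemis-deficient lines (n = 3), lines deficient for Artemis and ATM (n = 2) and Artemis-deficient lines with a dominant negative IkB (n = 3, IkB-DN lines). The labels do not say from which mice the lines came, whether they are clones, or what sex or strain those mice had, and p-values measure only the spread between these lines. The titles of the RAG-2-deficient samples contain the letters Bcl, which no label explains. The title of wild type replicate 3 contains the letters ATM although its source reads wild type.

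RAG-1 and RAG-2 together cut DNA beside the V, D and J segments of the antigen receptor genes, and the ends are joined by the non-homologous end joining pathway, in which Artemis opens the hairpin that RAG leaves on the coding ends. When v-abl signalling is stopped in such lines, they leave the cell cycle, express RAG and begin to rearrange the kappa light chain locus. ATM is the kinase that senses the breaks, and NF-kB, a family of transcription factors held in the cytoplasm by IkB proteins, is one pathway known to respond to them. In wild type cells breaks are brief because they are joined. In RAG-2-deficient cells none are made.

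Of 21731 probe sets tested with limma, 172 (0.791%) were called at an adjusted p below 0.05, 88 (0.405%) higher and 84 (0.387%) lower in wild type. With 1 probe set per gene, 73 of 9807 genes (0.744%) were called, 46 (0.469%) higher and 27 (0.275%) lower. The median size of the 172 differences was 1.43 on the log2 scale, and 130 of them exceeded a log2 of 1 and 49 a log2 of 2. All 172 had groups that did not overlap, which was true of 3327 probe sets (15.3%) in all. The median difference over all genes was 0.02. The calls draw on the spread of all 14 line samples. With only the 6 compared samples in the fit, 29 probe sets (0.133%) were called, 23 of them among the 172, and without the IkB-DN lines 42 (0.193%), all among the 172. Leaving out wild type replicate 1, 2 or 3 gave 77, 306 and 109 calls, and leaving out RAG-2-deficient replicate 1, 2 or 3 gave 82, 135 and 72. The median within-group SD was 0.27 in wild type, 0.22 in RAG-2-deficient and 0.16 in IkB-DN lines.

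**Figure D1:**
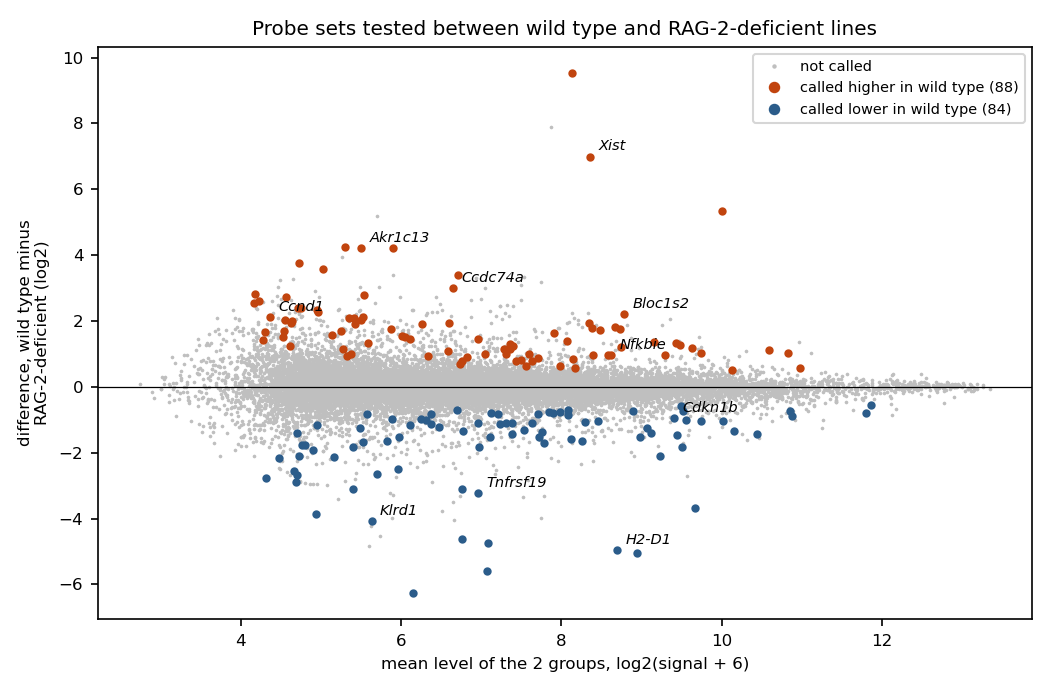
Each point is a probe set, with the mean level of the 2 groups on the x axis (log2 of signal plus 6) and the wild type minus RAG-2-deficient difference in log2 on the y axis. The 88 probe sets called higher (orange) and the 84 called lower (blue) lie on both sides of 0 over the whole range of levels, and grey probe sets of like difference but wider spread were not called.

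The samples stood close to each other. Correlations across probe sets, which share the array design and are a description only, ran from 0.910 to 0.935 among the wild type lines, from 0.934 to 0.946 among the RAG-2-deficient lines and from 0.888 to 0.937 between the groups. Of 17 pre-B cell markers on the array, 14 reached the median signal of the array in all 6 samples, and Bst2 was below it in all 6. Their summed signal was 42203 to 47918 in wild type, against 43214 to 50877 in RAG-2-deficient lines. Rag1 was at 11.18, 11.08 and 11.47 in wild type and at 10.46, 11.36 and 11.34 in the RAG-2-deficient lines. Rag2 transcripts were at 8.28, 7.48 and 7.86 in wild type and at 4.69, 8.03 and 8.38 in the RAG-2-deficient lines, where replicate 1 was low. No source used here says which part of Rag2 is deleted, and a probe set outside that part checks nothing. On the Atm probe set that separates the ATM-deficient lines (5.4 and 5.5), wild type replicate 3 was at 7.4, beside 7.5 and 7.4 in the other wild type lines.

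Xist, the RNA that coats the inactive X chromosome, was at 12.09, 11.83 and 11.65 in the wild type lines and at 5.64, 4.85 and 4.09 in the RAG-2-deficient lines, a difference of 6.997 ± 1.44 (SE, adjusted p = 0.0492). When any 1 of the 6 samples was left out the difference stayed between 6.61 and 7.38 but was not called (adjusted p 0.0706 to 0.152), and in the fit of the 2 groups alone it was called (adjusted p = 0.00168). Xist varied most among the Artemis-deficient lines (SD 4.25), which enter the shared spread. The Y-linked Uty went the other way, at 4.05, 3.19 and 3.29 against 7.84, 7.74 and 7.63 on its probe set of highest level, which was not called. Of its 3 probe sets the remaining 2 were called lower (-3.10 ± 0.58 and -2.75 ± 0.26). Eif2s3y, also on Y, was at 10.41, 10.12 and 3.12 in the RAG-2-deficient lines, so replicate 3 lacked it, and at 6.14, 2.69 and 2.84 in wild type. Among the 8 other samples Xist was high in Artemis-deficient replicate 1 and both ATM-deficient lines and low in the other 5. RAG-2 genotype and the level of Xist and Uty therefore cannot be told apart in this comparison, for any gene.

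The genes that differed most divide by which of the 2 groups left the rest of the lines. In 35 of the 73 called genes, all 3 RAG-2-deficient values lay outside the range of the other 11 line samples, below it in 26 and above it in 9. In 24 genes all 3 wild type values lay outside the other 11, above in 11 and below in 13; 3 genes (Chm, Coro2a and Cr2) met both. In 7 genes the wild type and Artemis-deficient lines together lay apart from the RAG-2-deficient, ATM-deficient and IkB-DN lines, and 11 genes met none of these. Among all 1528 genes (15.6% of those tested) whose wild type and RAG-2-deficient values did not overlap, the shares were 14.4%, 12.4% and 2.16%. This grouping was made after the values were seen, the comparisons with RAG-2-deficient lines share those 3 samples, and it carries no test.

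**Figure D2:**
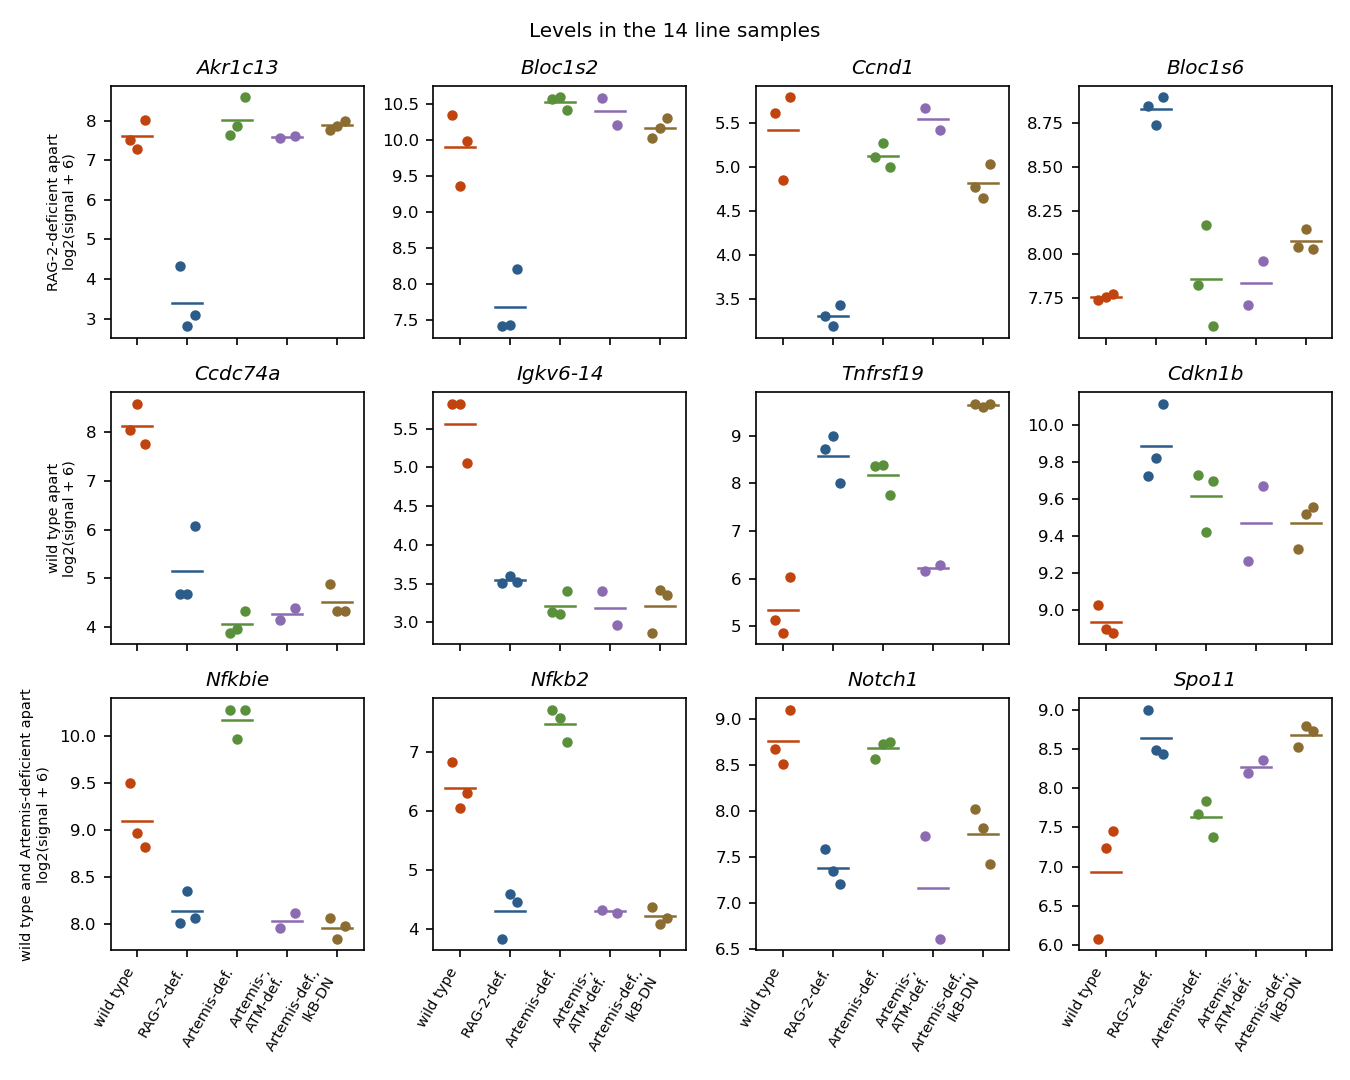
Level (log2 of signal plus 6, y axis) of 12 called genes in the 14 line samples; points are samples and bars group means, with a scale of its own in each panel. The top row holds genes in which the RAG-2-deficient lines stand apart from all others, the middle row genes in which the wild type lines do, and the bottom row genes in which wild type and Artemis-deficient lines together do (Nfkb2 is shown by its called probe set).

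Genes at which the RAG-2-deficient lines stood alone include the largest rises after Xist. Akr1c13, an aldo-keto reductase, was at 7.52, 7.29 and 8.01 in the wild type lines and at 4.32, 2.80 and 3.08 in the RAG-2-deficient lines. Every other line sample lay between 7.55 and 8.58, and the difference of 4.20 ± 0.35 (18.4-fold, adjusted p = 0.000122) was called in each of the 18 alternative fits. Bloc1s2, a subunit of complexes that form and move lysosome-related organelles, was at 10.34, 9.35 and 9.98 against 7.41, 7.42 and 8.20. It differed by 2.21 ± 0.25 (adjusted p = 0.00157) and kept its call whichever sample was left out. In the fit of the 2 groups alone it was not called (adjusted p = 0.112). Bloc1s6, another subunit of the same family of complexes, went the other way. Its 3 wild type values, 7.74, 7.76 and 7.77, lay within 0.03 of each other and below 8.85, 8.74 and 8.90, a difference of -1.07 ± 0.14 (adjusted p = 0.00421), and a second probe set of its 3 was also called lower.

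Ccnd1, which encodes cyclin D1, a driver of entry into S phase, was at 5.62, 4.86 and 5.79 in the wild type lines and at 3.30, 3.18 and 3.43 in the RAG-2-deficient lines. The other 8 samples ran from 4.64 to 5.67. The difference was 2.12 ± 0.26 (4.34-fold, adjusted p = 0.00236), with a call in all 6 fits that left out a sample. It was not called in the fit of the 2 groups alone (adjusted p = 0.154). Fggy, a carbohydrate kinase, was higher by 2.78 ± 0.41 and Txndc15, a thioredoxin domain protein, by 3.40 ± 0.56. RAG-2-deficient values of Txndc15 were spread over 3.56, 5.22 and 6.28, against 7.28 to 8.84 in the other 11 samples, and its call was lost without wild type replicate 1 or 3 (adjusted p = 0.0612 and 0.0598). Cr2, the complement receptor of mature B cells, was low in every line, at 6.00, 4.39 and 5.92 in wild type, against 2.92, 3.16 and 2.61 in RAG-2-deficient lines (2.54 ± 0.44, adjusted p = 0.0235). Its call was lost without wild type replicate 1 or 3 or RAG-2-deficient replicate 1 or 3 (adjusted p 0.0663 to 0.0998), and it was the 1 call of 8 mature B cell markers tested (background 0.744% of genes). Cr2 reached the median signal of the array in 2 wild type lines and no other line sample, and so was tested only through the group in which it is high; 3 of the 73 called genes passed the filter through wild type lines alone and 1 through RAG-2-deficient lines alone. A further 3 called genes of membrane and B cell signalling, not among the 15 largest rises and chosen after their values were seen, lay on the same side of all other lines: Pik3ap1, the adaptor that links the B cell receptor to PI3 kinase, was higher by 1.78 ± 0.32, the surface proteoglycan Sdc4 by 1.80 ± 0.32 and the receptor Notch2 by 1.71 ± 0.35. Pfkm, the muscle-type phosphofructokinase and the only call among 14 glycolysis genes (background 0.744%), was higher by 2.04 ± 0.39, with RAG-2-deficient values of 3.62, 4.13 and 5.69 against 6.22, 6.68 and 6.66. In 5 of the 6 fits without a sample it was not called.

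Bst1 led the genes that were higher in RAG-2-deficient lines than in every other line. It encodes a surface ectoenzyme first found on bone marrow stroma and carried by pro-B and pre-B cells. Its values were 8.97, 8.27 and 8.55 in the wild type lines, against 10.90, 10.20 and 10.13 in the RAG-2-deficient lines (-1.81 ± 0.30, adjusted p = 0.0189). ATM-deficient lines lay close below, at 9.90 and 9.92, and Artemis-deficient lines ran from 8.47 to 9.76. Oxr1, an oxidation resistance gene, was lower in wild type by 1.36 ± 0.22 on 1 probe set and 1.39 on its other. On the first, the 8 other samples ran from 9.83 to 10.54, against 10.70 to 10.89 in RAG-2-deficient lines. Arhgap5 varied little within each group, with 4.36, 4.38 and 4.36 against 5.62, 5.53 and 5.43 (-1.16 ± 0.23, adjusted p = 0.0416), and yet was called in no fit that left out a sample. Arhgap5 reached the median signal of the array in RAG-2-deficient lines only, and so was tested only through the group in which it is high. Slc35a5, a nucleotide sugar transporter family gene, was lower by 1.09 ± 0.18 in wild type. Bst1 and Oxr1 were called in 4 of the 6 fits without a sample and Slc35a5 in 3.

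Some probe sets of this kind differed far more than their gene. H2-D1, a classical MHC class I gene, has 8 probe sets here. On 3 of them the RAG-2-deficient lines were at 11.1 to 11.6 and the wild type lines at 6.1 to 8.1, with differences of -4.97 ± 0.12 (adjusted p = 6.68e-10), -5.03 ± 0.22 and -3.68 ± 0.17. The first of these has the smallest p of all probe sets tested, and the 8 other line samples lay at 5.3 to 7.9 on the 3 probe sets, on the wild type side. The other 5 probe sets of H2-D1 differed by -0.40 to 0.02, none called. A probe set that the annotation leaves without a gene was at 13.0, 13.2 and 12.4 in wild type, against 4.0 and 2.7 in RAG-2-deficient replicates 1 and 3, with replicate 2 empty (9.53 ± 0.33). It was also low in the ATM-deficient lines (4.8 and 4.4) and at 12.7 to 13.1 in the other 6 samples. Pdxdc1, a decarboxylase family gene, differed by -4.73 ± 0.30 on 1 probe set and by 0.40 ± 0.19 on the probe set with the highest level. Rbm28, an RNA-binding protein of the nucleolus, was called in both directions, -0.71 ± 0.09 on 1 probe set and 1.16 ± 0.19 on the other. These probe sets were chosen after their values were seen, and the change of such a gene cannot be given as 1 number.

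**Figure D3:**
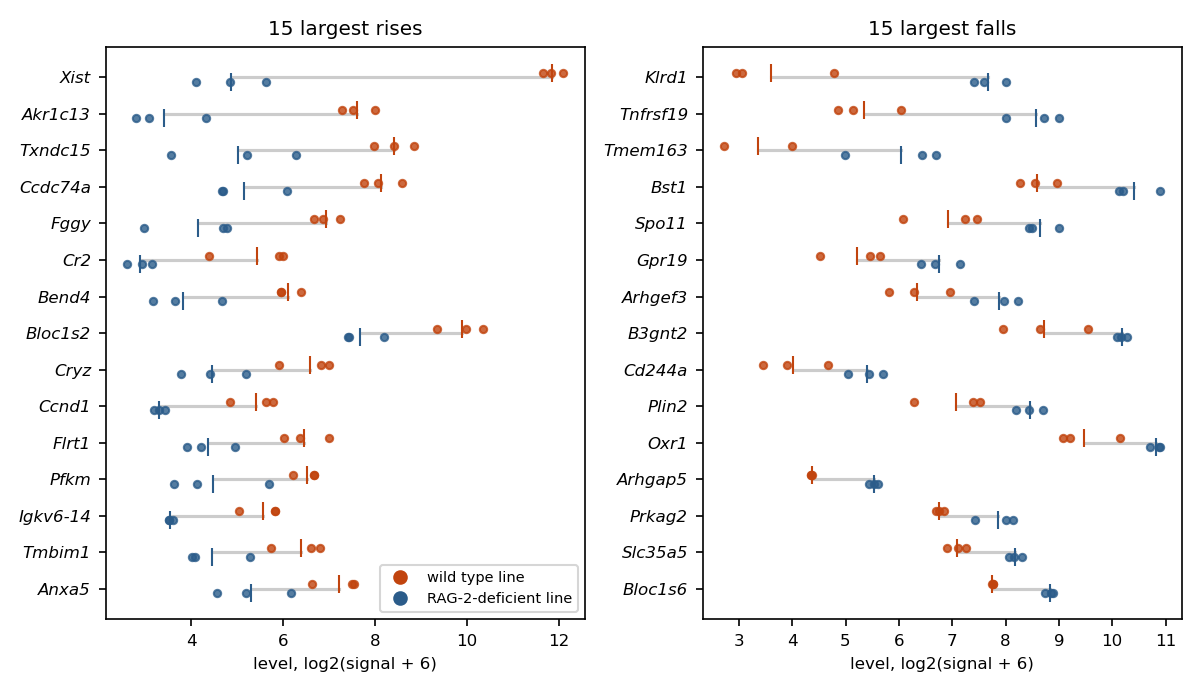
Level of the 15 largest rises (left) and 15 largest falls (right) among called genes, with 1 probe set per gene; each point is a line, ticks are group means and the x axis is log2 of signal plus 6. In no row do the 3 wild type values (orange) overlap the 3 RAG-2-deficient values (blue), which the choice of the rows fixes, and Arhgap5 and Bloc1s6 have the narrowest groups.

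Wild type lines stood alone at a different set of genes. Ccdc74a, a coiled-coil protein gene, was at 8.06, 8.59 and 7.77 in the wild type lines and at 4.69, 4.68 and 6.08 in the RAG-2-deficient lines, and the 8 other samples lay between 3.89 and 4.88. It differed by 2.99 ± 0.36 (7.95-fold, adjusted p = 0.00232) and kept its call whichever sample was left out. In the fit of the 2 groups alone it was not called (adjusted p = 0.112). Its second probe set went the other way and was not called. Bend4 (2.27 ± 0.42) and Flrt1, a cell surface leucine-rich repeat protein (2.10 ± 0.32), were likewise higher in wild type than in all other lines. Bend4 was called in 1 of the 6 fits without a sample and Flrt1 in 4. Bend4 reached the median signal of the array in wild type lines only, and so was tested only through the group in which it is high. Ctnna1, which encodes alpha-catenin and joins cadherins to actin, was called on 2 of its 3 probe sets (1.74 ± 0.18 and 1.95 ± 0.20) and was also chosen after its values were seen. On the first, IkB-DN lines lay just below wild type, at 9.05 to 9.45 against 9.47 to 9.82. RAG-2-deficient lines were at 7.63 to 8.20 on it, so the high level was not particular to wild type.

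Tnfrsf19, a receptor of the TNF family, was the second largest fall. Its values were 5.13, 4.87 and 6.04 in the wild type lines, against 8.71, 9.01 and 7.999 in the RAG-2-deficient lines, and all 3 of its probe sets were called lower (-3.23, -2.66 and -1.84). The difference of -3.23 ± 0.31 (9.37-fold, adjusted p = 0.000382) kept its call whichever sample was left out. In the fit of the 2 groups alone it was not called (adjusted p = 0.0556). ATM-deficient lines were near wild type, at 6.16 and 6.29, and IkB-DN lines highest, at 9.60 to 9.67. It was the only call among 12 TNF family ligands and receptors (background 0.744% of genes). Cdkn1b, which encodes the CDK inhibitor p27 and holds cells out of S phase, was at 9.03, 8.89 and 8.88 in wild type and at 9.72, 9.82 and 10.12 in the RAG-2-deficient lines. At -0.95 ± 0.14 (adjusted p = 0.011) it too was called in each fit without a sample. It was not called in the fit of the 2 groups alone (adjusted p = 0.112). B3gnt2, a glycosyltransferase (-1.47 ± 0.30), and Plin2, a coat protein of lipid droplets (-1.38 ± 0.28), were below all other lines in wild type. So was Prkag2, a subunit of the energy sensor AMPK, on its probe set of highest level (-1.10 ± 0.20). These genes were called in 1, 1 and 2 of the 6 fits without a sample. Prkag2 was called lower on all 3 of its probe sets, but wild type stood apart from all other lines only on that of highest level. Tmem163 (-2.67 ± 0.53) had only 2 wild type values, 2.73 and 4.00. The interferon-inducible Ifi209 (-0.88) and Lgals9, the lectin galectin-9 (-0.74), had the same pattern and were chosen after their values were seen.

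Klrd1, an inhibitory receptor of NK cells, had the largest fall among genes given by 1 probe set, with values of 4.78, 2.95 and 3.05 in the wild type lines, against 7.40, 8.02 and 7.60 in the RAG-2-deficient lines (-4.08 ± 0.78, adjusted p = 0.044). It was called in 1 of the 6 fits without a sample and was highest in the IkB-DN lines, at 8.73 to 9.24. Cd244a, a receptor of NK and T cells, was lower by 1.39 ± 0.28 (adjusted p = 0.0458), with a call in 2 of those 6 fits. These were 2 of the 3 T and NK cell markers that passed the filter on low values (background 0.744% of genes), and neither reached the median signal in any wild type line. Of the 16 on the array, 13 were below the median signal in all 6 samples, among them Cd3d, Cd3e, Cd4, Cd8a, Nkg7 and Gzma, and the summed signal of the 16 was 63.8 to 168 in wild type, against 292 to 451 in RAG-2-deficient lines. Without Klrd1 the sums overlapped, at 51.3 to 167 and 104 to 288. In bulk RNA, fewer cells with a transcript and less of it per cell cannot be told apart. Others among the 15 largest rises and falls were Cryz, a quinone oxidoreductase (2.12 ± 0.36), Tmbim1 (1.92 ± 0.36), Anxa5, the phosphatidylserine-binding annexin A5 (1.91 ± 0.37), Gpr19 (-1.53 ± 0.29) and Arhgef3 (-1.52 ± 0.27). Of these Arhgef3 and Gpr19 were called in 3 and 1 of the 6 fits without a sample, and the first 3 in 2 each. The 39 called genes not named by rule ranged from -1.03 to 1.80, 28 higher and 11 lower. Some of them are named in the text as chosen after their values were seen.

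Among 12 NF-kB subunits and inhibitors 1 was called (8.33%, background 0.744% of genes), 9 were above 0 and the median difference was 0.24. An unadjusted limma p below 0.05 was reached by 3 of the 12, against 13.4% of all genes. Nfkbie, which encodes IkB epsilon, an inhibitor that NF-kB itself induces, was at 9.50, 8.97 and 8.81 in the wild type lines and at 8.01, 8.35 and 8.06 in the RAG-2-deficient lines. It differed by 0.96 ± 0.17 (1.94-fold, adjusted p = 0.0286), and was not called without wild type replicate 1 (0.75, adjusted p = 0.0694) or without RAG-2-deficient replicate 1 or 3 (adjusted p = 0.104 and 0.103). Artemis-deficient lines were higher still, at 10.28, 9.97 and 10.28, while ATM-deficient lines (7.95 and 8.12) and IkB-DN lines (7.84 to 8.06) lay with the RAG-2-deficient ones. The groups fell in that same order on 1 of 2 probe sets of Nfkb2, the gene of the p100 and p52 subunit. That probe set was at 6.8, 6.0 and 6.3 in wild type, against 3.8, 4.6 and 4.5 in RAG-2-deficient lines (2.09 ± 0.25, adjusted p = 0.0024), at 7.2 to 7.7 in Artemis-deficient lines and at 4.1 to 4.4 in the ATM-deficient and IkB-DN lines. The second probe set of Nfkb2, which has the higher level, differed by 0.36 ± 0.17 and was not called (adjusted p = 0.418).

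The promoters of these genes are shown because each has a called probe set, and Nfkb2 was picked for its own after the values were seen. They were searched for the kB motif that NF-kB dimers bind, on both strands, as GGG, any 3 bases, then TTCC. The windows run from 250 bases before to 50 after the annotated start, from RefSeq on GRCm38.p6. Each is on the plus strand, chr17:45555450-45555749 for Nfkbie and chr19:46304487-46304786 for the first of 3 annotated starts of Nfkb2, written 5′ to 3′ with the motif in capitals.
Nfkbie: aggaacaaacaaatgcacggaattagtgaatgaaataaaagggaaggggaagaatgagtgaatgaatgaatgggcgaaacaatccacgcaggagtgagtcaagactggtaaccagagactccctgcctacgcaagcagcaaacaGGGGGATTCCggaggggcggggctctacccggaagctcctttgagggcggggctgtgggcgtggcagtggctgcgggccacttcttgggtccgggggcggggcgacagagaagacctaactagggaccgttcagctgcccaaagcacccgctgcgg
Nfkb2: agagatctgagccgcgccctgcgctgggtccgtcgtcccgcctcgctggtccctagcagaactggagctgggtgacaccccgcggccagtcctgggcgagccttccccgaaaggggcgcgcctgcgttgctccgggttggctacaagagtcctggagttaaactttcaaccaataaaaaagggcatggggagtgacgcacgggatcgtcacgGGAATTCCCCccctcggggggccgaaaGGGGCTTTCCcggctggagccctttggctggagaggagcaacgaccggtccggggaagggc
The match in Nfkbie begins 106 bases before the start. Nfkb2 has 1 on the minus strand, 38 bases before the start, and 1 on the plus strand, 11 bases before it. The motif occurred in 1825 of 32851 windows (5.56%) of the table and in some window of 570 of 8028 tested genes (7.1%). It occurred in 3 of 35 genes called higher (8.57%) and in 4 of 20 called lower (20.0%) that have a window. A match of letters is a description and does not show binding.

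Other NF-kB pathway and target genes did not pass the test. Nfkbid, a nuclear IkB protein, was at 8.4, 6.8 and 7.3 in the wild type lines, against 5.7, 5.9 and 5.9 in the RAG-2-deficient lines (1.70 ± 0.36, adjusted p = 0.0519). Relb, a subunit, differed by 0.72 ± 0.18 (adjusted p = 0.103). Cd69, an early activation antigen that retains lymphocytes in tissue, was at 9.40, 10.28 and 9.16 against 7.48, 8.78 and 8.13 (1.49 ± 0.35, adjusted p = 0.0779), without overlap. The target Gadd45b lay on the other side, at -1.39 ± 0.38 (adjusted p = 0.144). Nfkbia, the gene of IkB alpha, differed by 0.26 ± 0.18. Of 26 targets tested 1, Nfkbie, was called (3.85%, background 0.744% of genes), 19 were above 0 and the median was 0.24, beside 0.02 over all genes. Groups did not overlap in 9 of the 26 (34.6%), against 15.6% of all genes. An unadjusted limma p below 0.05 was reached by 10 of them, against 13.4% of all genes. Notch1, a receptor that guides lymphoid fate, followed the order of Nfkbie only in part: it was at 8.68, 8.51 and 9.10 in wild type, against 7.59, 7.35 and 7.21 in RAG-2-deficient lines (1.38 ± 0.26, adjusted p = 0.0344), 8.57 to 8.75 in Artemis-deficient and 6.61 to 8.02 in the ATM-deficient and IkB-DN lines. It was called without wild type replicate 2 and in no other fit that left out a sample (adjusted p 0.0676 to 0.118). Cyba, a subunit of the phagocyte oxidase (1.36 ± 0.21, chosen after its values were seen), was likewise higher in wild type and Artemis-deficient lines than in all others, and Spo11, whose protein cuts DNA in meiosis, was lower in them (-1.72 ± 0.30, adjusted p = 0.023) and was called in 4 of the 6 fits without a sample.

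**Figure D4:**
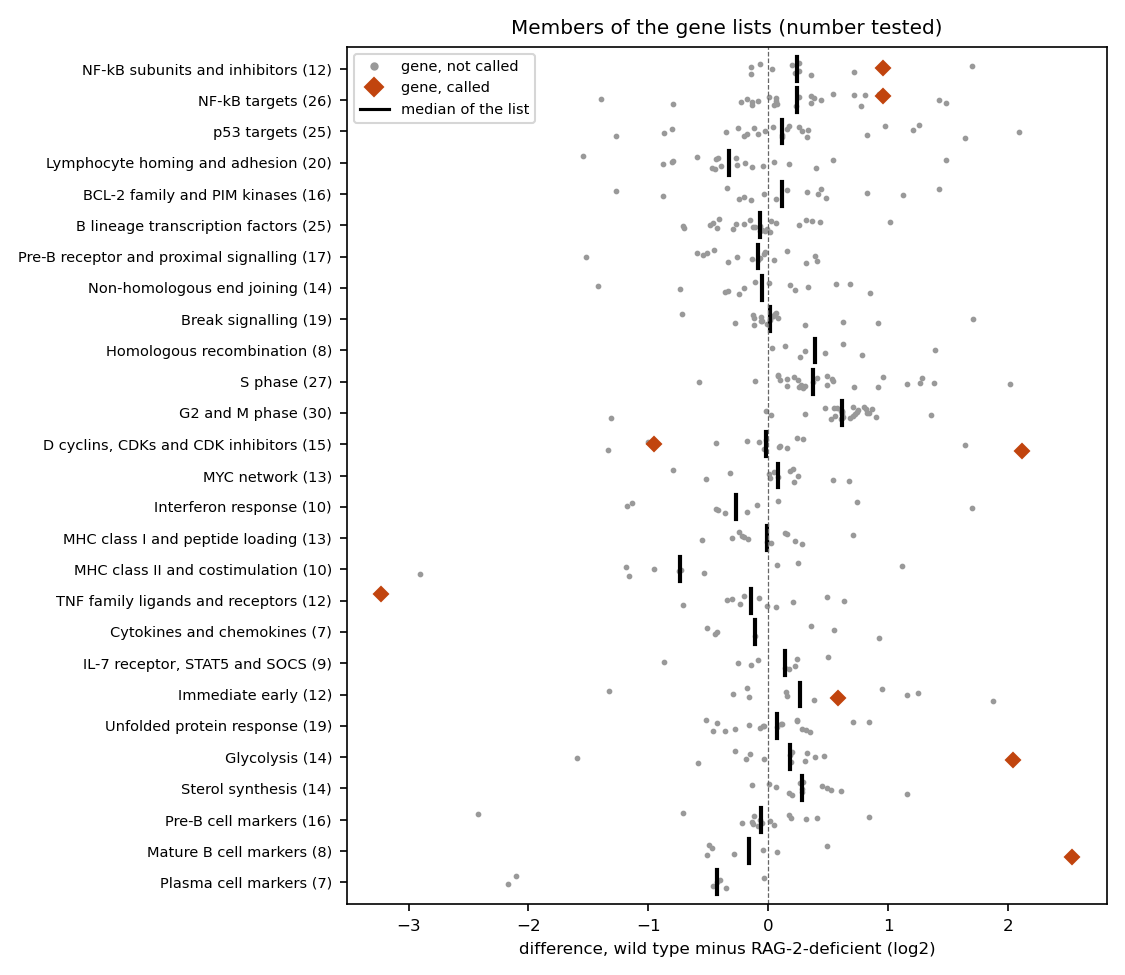
Differences of the members of 27 gene lists (x axis, wild type minus RAG-2-deficient, log2), with 1 point per gene, called genes as diamonds and the list median as a bar; the number tested stands in parentheses, and Nfkbie appears in both NF-kB lists. Lists with fewer than 7 genes tested and the sex-linked list are not drawn, and among those drawn the medians farthest from 0 are those of the G2 and M phase (0.62) and of MHC class II and costimulation (-0.73), neither with a called member.

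Immunoglobulin genes are rearranged by RAG, so their transcripts are given apart. Of 14 immunoglobulin probe sets tested, 1 was called (background 0.791% of probe sets). Igkv6-14, a kappa variable gene, was at 5.82, 5.82 and 5.05 in the wild type lines and at 3.51, 3.60 and 3.52 in the RAG-2-deficient lines (2.02 ± 0.36, adjusted p = 0.0265). The other 8 samples, all without Artemis, were at 2.87 to 3.42. It was called without wild type replicate 3 and in no other fit that left out a sample (adjusted p 0.0554 to 0.115). On 1 of 3 probe sets of Iglv1, a lambda variable gene, wild type lines were at 8.2, 10.8 and 5.8 and the RAG-2-deficient lines at 2.9 to 3.4 (5.18 ± 1.04, adjusted p = 0.0799). The second Iglv1 probe set differed by 2.16 ± 1.46 and the third by -1.27 ± 1.52. A further kappa variable gene differed by 1.49 ± 0.43 (adjusted p = 0.157). Of the 8 light chain probe sets tested, these 3 (Igkv6-14, the first of Iglv1 and the further kappa gene) reached the median signal of the array in wild type lines only and so were tested through the group in which they are high, and 11 others on the array were not tested. No count or median over the 8 is therefore given. None of the 6 heavy chain probe sets was called, and Ighm, the mu constant gene, differed by -0.30 ± 0.22 on its probe set of highest level.

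Repair and break-signalling genes gave no calls. None of 14 end joining, 19 break signalling or 8 homologous recombination genes was called by limma, and 2, 2 and 3 of them had an unadjusted p below 0.05, which 13.4% of all genes had. The 8 homologous recombination genes were all above 0, with a median of 0.39, or 0.19 without wild type replicate 1. Xrcc5, which encodes Ku80, differed by 0.85 ± 0.28 (adjusted p = 0.218) and Lig4, the ligase that seals the joint, by -0.73 ± 0.25 (adjusted p = 0.236). Chek1, a checkpoint kinase, differed by 1.71 ± 0.50 without overlap (adjusted p = 0.174). The 25 p53 targets had no call, 3 had an unadjusted p below 0.05, and the median was 0.12. Cdkn1a, the p21 gene, was at 8.3, 7.5 and 10.8 in wild type, against 5.7, 6.7 and 9.3 in the RAG-2-deficient lines (1.64 ± 1.29), so that replicate 3 was highest in both groups.

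Proliferation genes varied more within the groups than between them. Of 30 G2 and M phase genes 28 were above 0 with a median of 0.62, and 25 of 27 S phase genes with a median of 0.37, yet neither list had a called gene, and 1 and 8 had an unadjusted p below 0.05. Averaged over the G2 and M phase list and set against the mean of the 14 samples, wild type replicates 1, 2 and 3 stood at 2.41, 0.66 and -1.24 and the RAG-2-deficient replicates at 0.21, 0.97 and -1.08. Without wild type replicate 1 the median became -0.34, without wild type replicate 3 it became 1.63, and without RAG-2-deficient replicate 3 it was 0.01. S phase levels were 1.27, 0.27 and -0.15 against 0.04, 0.16 and -0.37, and the median fell to 0.07 without wild type replicate 1. The p53 target list was highest in the 2 samples that were lowest in these lists: wild type replicate 3 stood at 0.58 and RAG-2-deficient replicate 3 at 0.51, and the other 4 ran from -0.55 to -0.19. Bub1b, a mitotic checkpoint kinase, was at 8.60, 6.55 and 5.60 in wild type, against 5.28, 6.70 and 4.71 in RAG-2-deficient lines. Ccnd1 and Cdkn1b, whose groups did not overlap, were the only calls among 15 D cyclins, CDKs and CDK inhibitors (background 0.744% of genes), and Ccnd2, the other D cyclin given here, differed by -1.34 ± 0.58 (adjusted p = 0.37).

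**Figure D5:**
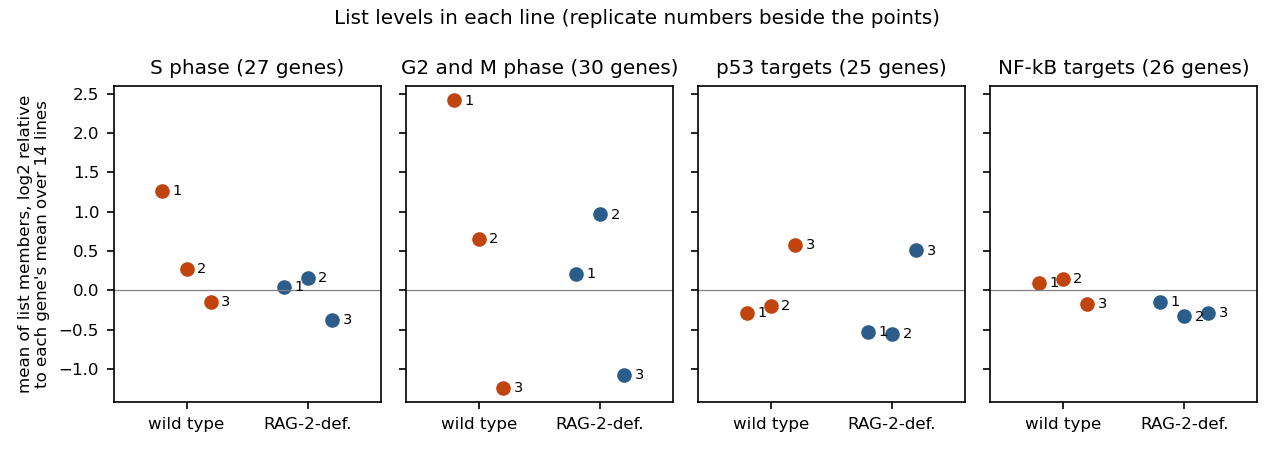
Mean level of the members of 4 lists in each of the 6 lines, in log2 relative to each gene's mean over the 14 line samples (y axis), with replicate numbers beside the points. Replicate 3 of both groups is lowest for the S and G2 and M phase lists and highest for p53 targets, wild type replicate 1 is highest for both phase lists, and the groups overlap in all 4 lists.

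With 1 probe set per gene, no gene of MHC class I, of class II with costimulation or of the pre-B receptor was called, apart from the 3 probe sets of H2-D1 given above. H2-Ab1, an MHC class II chain, was at 5.13, 4.38 and 5.29 in the wild type lines, against 8.59, 6.91 and 7.996 in the RAG-2-deficient lines (-2.90 ± 0.57, adjusted p = 0.0542). H2-Ob, a chain of the DO molecule that tunes class II loading, differed by -0.95 ± 0.21 (adjusted p = 0.0654). Of 10 class II and costimulation genes 0 were called by limma, 2 had an unadjusted p below 0.05, and the median of -0.73 became 0.07 without RAG-2-deficient replicate 1. H2-K1, an MHC class I gene, differed by 0.28 ± 0.06 (adjusted p = 0.0568). Blk, a SRC family kinase of the pre-B receptor, was at 9.34, 8.32 and 9.58 against 10.07, 10.71 and 11.03 (-1.52 ± 0.32, adjusted p = 0.0502), and 5 of 17 genes of its list had an unadjusted p below 0.05. Jund, an AP-1 subunit, was the 1 call of 12 immediate early genes (background 0.744%), at 11.37, 11.28 and 11.14 against 10.45, 10.65 and 10.95 (0.58 ± 0.12, adjusted p = 0.0485), and was called without RAG-2-deficient replicate 3 only. Jun, its relative, differed by 1.88 ± 0.43 (adjusted p = 0.074). Of the 12 immediate early genes 6 had an unadjusted p below 0.05, which 13.4% of all genes had, 8 were above 0 and the median was 0.27.

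Homing and adhesion genes had 0 calls of 20 by limma, with 5 at an unadjusted p below 0.05, 5 above 0 and a median of -0.33; Icam2 (-0.80 ± 0.18, adjusted p = 0.0721) had the smallest p. B lineage transcription factors (25 tested, median -0.07), the BCL-2 family with PIM kinases (16, median 0.11), the unfolded protein response (19, median 0.07), the MYC network (13, median 0.08) and sterol synthesis (14, median 0.28, with 13 above 0) had no call, and 4, 5, 2, 1 and 0 of their genes had an unadjusted p below 0.05. Bcl2, named here because of the letters in the control titles, differed by -0.15 ± 0.11 on its probe set of highest level, at 11.1 to 11.6 in all 6 lines. Its other probe set differed by -1.09, lower in wild type, and was not called either.

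Rag2 lies on chromosome 2, and a targeted allele can carry flanking DNA. Of the 200 nearest genes in RefSeq order, 100 on each side, 70 were tested and 0 were called by limma on any probe set, beside 107 of 9447 genes placed on a chromosome (1.13%). An unadjusted p below 0.05 was reached by 17 of their 135 probe sets (12.6%), against 12.4% of all probe sets.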

How the data were processed

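Per the labels, RNA was hybridised to Affymetrix Mouse 430 v2 arrays, and per the submitters' processing notes read with GeneChip Operating Software 1.2.0.037. The deposited values are log10 signals per probe set. Their base was inferred from the range of the values, and no source used here gives the authors' summary and scaling steps. The table holds 44200 probe sets, 34294 naming 1 gene; the median signal of the 6 arrays was 26.8 to 27.5, and 6323 to 6582 cells per array were empty, mostly at low signal, and left so. The number of arrays limits the precision.

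Signals plus a pseudocount of 6 were taken to log2. Differences on this scale understate changes of dim genes. The 2 arrays of each ATM-deficient line were averaged, which left 14 line samples. Probe sets were kept if 2 samples reached their array's median signal (21917). They were tested between wild type and RAG-2-deficient lines with limma 3.58.1 in R 4.3.3 (lmFit on all 5 line groups, 9 residual degrees of freedom, then eBayes with an intensity trend), two-sided, with Benjamini-Hochberg adjustment over 21731 probe sets that had 2 values in both groups.

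A gene is given by its probe set of highest mean level. By rule the text names, out of the called genes without overlap between groups, the 15 with the largest rise and the 15 with the largest fall, then called list members, up to 2 members of lists without a call, and targeted, immunoglobulin and sex-linked genes. Names outside this rule are marked as such. The comparison and the 34 gene lists were chosen with earlier results of these data known, and no list was tested as a set. Marrow samples were not used here. Alternatives were other samples in the fit, array weights, pseudocounts, filters, normalizations, priors and leaving out each sample.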

Additional observations from a re-analysis of the deposited data

How the results depend on the processing

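No called probe set changed sign under any of the 18 alternatives run. Of 606 values of the 34 called genes named by rule, 389 kept their call and 217 did not. Fitting the 2 groups by themselves, 29 probe sets, 3 of the 12 called list members and 0 immunoglobulin probe sets were called. Without the IkB-DN lines these counts were 42, 3 and 0, and with array weights per group 95, 6 and 0. Pseudocount 1 gave 7 list members and 0 immunoglobulin probe sets, the stricter filter 0 immunoglobulin probe sets, and deposited log values without a pseudocount 6 and 0. The share of higher calls was 51.2% in the fit of 5 groups, 34.5% with the 2 groups and 47.6% without the IkB-DN lines. Leaving out 1 sample gave 72 to 306 probe sets, 4 to 18 list members, 0 to 2 immunoglobulin probe sets and 0 to 1 genes next to Rag2. Fits with fewer samples have fewer degrees of freedom (4 with 2 groups, 9 with 5); the other causes were not tested. No paired analysis was possible because the replicate numbers are accession order and pair nothing. Signals near the median of an array limit what can be seen of dim genes.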

Other observations

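Called genes placed on a chromosome were 107 of 9447 (1.13%, counting a call on any probe set). Some called genes were close neighbours in RefSeq order, within 10 genes: 24 genes fell into 11 such runs. Spata13 (-3.86 on 1 of 3 probe sets) and Tnfrsf19 (-3.23) lie 3 genes apart on chromosome 14. Gpr19 (-1.53) and Cdkn1b (-0.95) are adjacent on chromosome 6, where C1galt1 (-1.04) and Mios (-1.22) form another run. Ttpal (called at 1.20 on 1 probe set and at -0.83 on another), Serinc3 (-0.80) and Pkig (-1.42) are in sequence on chromosome 2, and Cd244a (-1.39) and Slamf6 (-1.43) are near each other on chromosome 1. Other runs held both directions, as Heatr5a (0.80) and Arhgap5 (-1.16) on chromosome 12. On chromosome 5, Bend4 (2.27), Atp8a1 (-1.93) and Gnpda2 (1.29) did so too. How many runs as many scattered genes would form was not counted. These runs were noticed in the data and were not tested.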
